A study of Homo sapiens with 131 samples.

Results

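The long noncoding RNAs MALAT1, NEAT1, NORAD, GAS5, SNHG1, SNHG5, SNHG6 and SNHG8 were followed by gene name through the tables of a study of processing bodies (P-bodies). All 8 members were present among 59409 genes of a table of RNA levels and among 59412 genes of a table of translation efficiency. None of the 8 had an entry, by symbol or by synonym, in the 40 editing tables, which together cover 12997 genes, or in the 2 tables of poly(A) tail length, which cover 1421, so editing and tails of these RNAs were not analysed here. By the RefSeq biotype, 12768 of the genes in the editing tables code for protein and 1 is a lncRNA.

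P-bodies are cytoplasmic granules that hold untranslated mRNA and factors of translational repression and decay, among them the RNA helicase DDX6. The study marked RNAs near P-body proteins by fusing them to an RNA deaminase, APOBEC1 or ADAR2dd (the deaminase domain of ADAR2). RNA levels were available for 10 libraries of uninduced HCT116 cells, a colorectal carcinoma line. They comprised the lines carrying APOBEC1-DDX6 (n = 3), ADAR2dd-control (n = 2), APOBEC1_ADAR2dd-control (n = 2) and APOBEC1-control (n = 3). All 4 lines thus carried an editor construct, kept uninduced, and no parental HCT116 library was among the 10. Translation efficiency was given for DDX6-KO and WT cells of HCT116 and of HEK293T, an embryonic kidney line, as 1 value per genotype and line. The labels list 2 polysome and 2 total libraries for each of these, combined by the authors in a way not given in the sources used here. They do not say whether a line is 1 clone or whether replicates were separate cultures, so p-values measure only the spread between these libraries, which may be technical.

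Noncoding RNAs of this size differ in where they act. MALAT1 stays in nuclear speckles and NEAT1 is the scaffold RNA of paraspeckles, so both are known as nuclear-retained. NORAD is mainly cytoplasmic and is known as a decoy for RNA-binding proteins that repress mRNAs. The SNHG genes and GAS5 carry small nucleolar RNAs (snoRNAs) in their introns. Their spliced exons are exported, can engage ribosomes, and are known targets of nonsense-mediated decay in the case of GAS5 and several SNHG RNAs. Many snoRNA hosts belong to the 5′ terminal oligopyrimidine class, whose transcripts begin with a C and a run of pyrimidines.

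Positions are those of RefSeq on GRCh38.p14, where all 8 are annotated as lncRNA genes. MALAT1 lies at chr11:65497738-65506516 and NEAT1 at chr11:65422798-65445540, 52197 bases apart. SNHG1 lies on the same chromosome at chr11:62851978-62855885. NORAD lies at chr20:36045618-36050960, GAS5 at chr1:173863901-173869045, SNHG5 at chr6:85677007-85678733, and SNHG8 at chr4:118278762-118279823. RefSeq places 11 snoRNA genes inside GAS5, 9 inside SNHG1, 2 inside SNHG5 and 1 each inside SNHG6 and SNHG8. MALAT1 overlaps the antisense gene TALAM1, GAS5 overlaps GAS5-AS1 and ZBTB37, and SNHG6 overlaps MCMDC2. Whether reads were counted by strand is not given in the sources used here, so the values of these 3 members could include reads of their neighbours.

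The start-site sequences of the snoRNA hosts are shown because all 5 member hosts were lower in translation efficiency in DDX6-KO than in WT HCT116 cells, and those of MALAT1 and NORAD beside them. RefSeq promoter entries matched 6 of the 8 members. NEAT1 had no entry and SNHG6 is named only. Each window has 90 bases of genomic sequence on the transcript strand, 40 before the annotated start and 50 from it. Capitals mark TATAA where it begins at positions -40 to -20 and, on this strand only, a C followed by at least 4 bases that are each C or T, where that C lies at positions -10 to 10.
SNHG5: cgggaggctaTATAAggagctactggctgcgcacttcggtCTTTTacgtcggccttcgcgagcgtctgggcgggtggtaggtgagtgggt
SNHG8: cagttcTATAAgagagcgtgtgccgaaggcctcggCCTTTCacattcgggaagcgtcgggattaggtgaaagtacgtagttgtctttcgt
SNHG1: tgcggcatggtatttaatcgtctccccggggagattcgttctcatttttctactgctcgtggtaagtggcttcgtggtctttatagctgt
GAS5: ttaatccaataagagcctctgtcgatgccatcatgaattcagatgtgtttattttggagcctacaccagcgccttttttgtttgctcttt
NORAD: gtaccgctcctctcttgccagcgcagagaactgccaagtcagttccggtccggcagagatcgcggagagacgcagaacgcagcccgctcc
MALAT1 first start: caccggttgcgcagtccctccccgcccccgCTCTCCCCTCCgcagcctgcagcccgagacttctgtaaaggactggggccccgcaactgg
MALAT1 second start: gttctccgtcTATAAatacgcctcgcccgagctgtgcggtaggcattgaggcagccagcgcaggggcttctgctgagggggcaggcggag
In the order shown, the windows are chr6:85678684-85678773 (minus strand), chr4:118278722-118278811 (plus), chr11:62855836-62855925 (minus), chr1:173868996-173869085 (minus), chr20:36050911-36051000 (minus) and, for the 2 RefSeq start sites of MALAT1, chr11:65497698-65497787 and chr11:65499005-65499094 (both plus). The run began at position 1 in SNHG5 (5 bases, the first bases of the transcript) and at position -5 in SNHG8 (6 bases). The longest run, 11 bases from position -10, was at the first start of MALAT1, so such a run was not confined to the hosts. TATAA began at position -30 in SNHG5, at -34 in SNHG8 and at -30 at the second start of MALAT1. Among 35116 RefSeq promoters, 32.5% held such a pyrimidine run and 3.91% held TATAA in the same span. SNHG1, GAS5 and NORAD held neither within the positions searched. Pyrimidine runs elsewhere in the windows are not marked. RefSeq lists 50 transcripts for GAS5 and 12 for SNHG1, and only the start shown was examined for each. Whether other starts of these genes hold such a run was not tested.

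RNA levels were deposited as TPM, a share of transcripts adjusted for length, in which each library sums to the same total. TPM keep no read depth, so no counting interval can be given. Libraries detected 15772 to 16357 genes at 1 TPM or more. The share of TPM taken by mitochondrially encoded genes was 37.2% to 37.7% in APOBEC1-DDX6, 24.9% in ADAR2dd-control, 28.1% to 28.2% in APOBEC1_ADAR2dd-control and 38.1% to 38.7% in APOBEC1-control libraries. TPM are shares, and the median gene shifted by 0.10 (log2) in ADAR2dd-control and 0.13 in APOBEC1_ADAR2dd-control relative to APOBEC1-control, but by 0.01 in APOBEC1-DDX6. The part of the mitochondrial share in the results was not tested. Where rescaling without the mitochondrial genes, or centring each library on its median, changed a result, this is given beside it. Of 15 markers of colorectal lines, 11 averaged at least 1 TPM and the summed level was 5345 to 6439 TPM per library. The markers CEACAM5, CDX1 and LGR5 were below 0.1 TPM. Of 12 markers of HEK293T cells, 5 averaged at least 1 TPM, with a sum of 63.1 to 81.8 TPM. The identity of the HEK293T cells could not be checked, since translation efficiency gives no levels.

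The members spanned more than an order of magnitude in level. Averaged over the 4 lines, TPM were 260.01 for NORAD, 239 for SNHG6, 113 for GAS5, 95.2 for SNHG1, 42.4 for MALAT1, 24.03 for NEAT1, 12.8 for SNHG8 and 12.02 for SNHG5. On this per-length scale NORAD stood above 97.7% and SNHG6 above 97.3% of the 16229 genes with a mean of at least 1 TPM, while SNHG5 stood above 47.1% and SNHG8 above 48.1%. MALAT1, often among the most abundant nuclear RNAs, stood above 78.9% of genes and NEAT1 above 62.8%. How fully mRNA libraries captured MALAT1 and NEAT1 was not tested, so their levels and translation efficiencies describe the captured RNA only. The snoRNAs inside the hosts were not seen as separate genes. The 12 host-intron snoRNAs with a row in the table were listed at 0 in all 10 libraries.

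**Figure D1:**
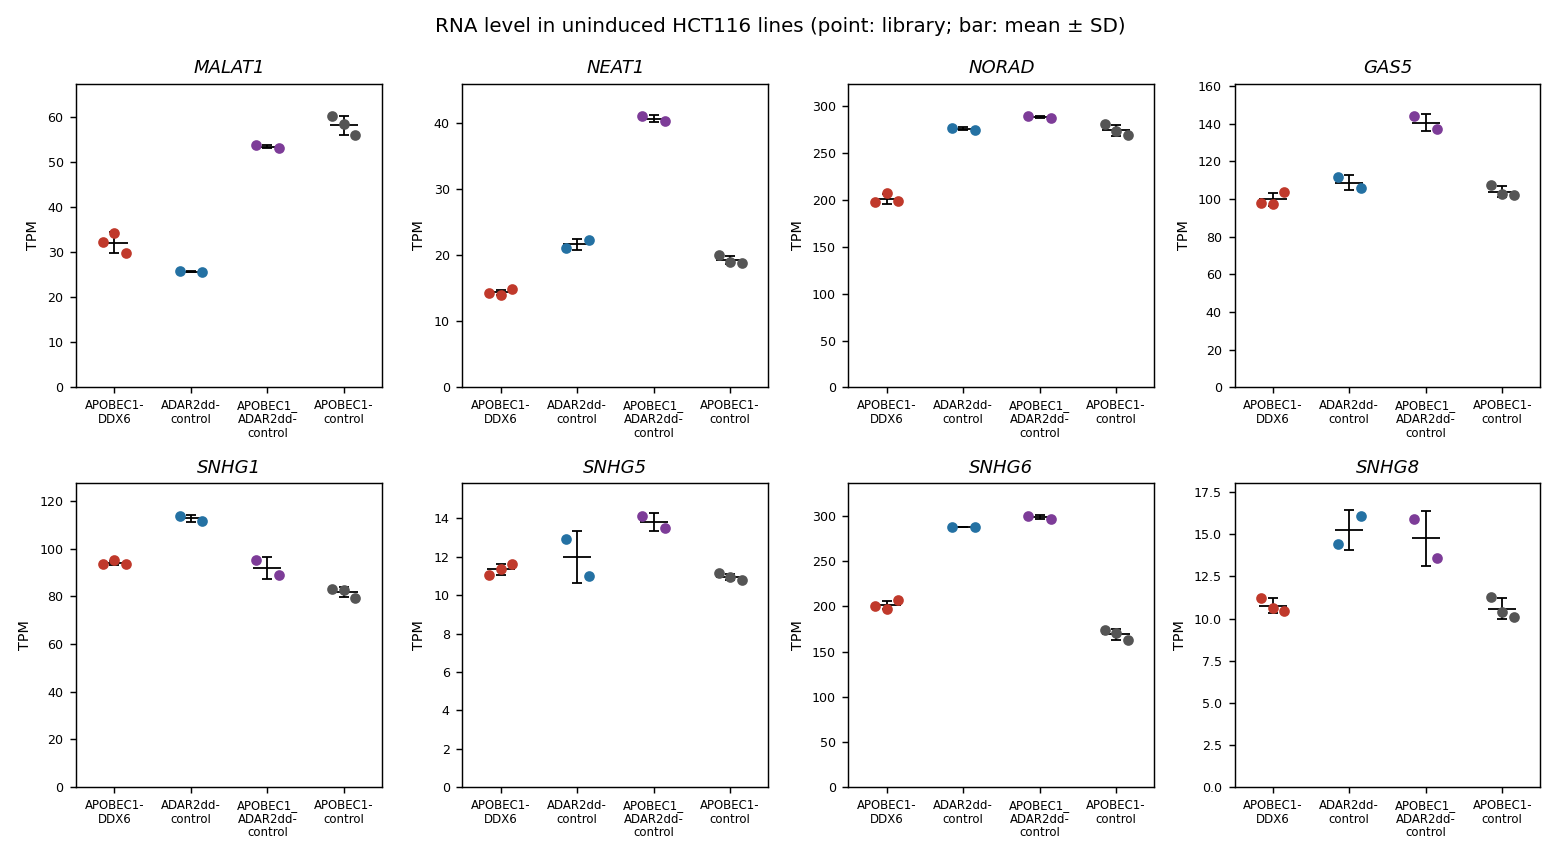
RNA level of the 8 noncoding RNAs in TPM (vertical axes, each from 0) in 4 uninduced HCT116 lines (horizontal axes). Points are libraries and bars the mean ± SD. MALAT1 is low in APOBEC1-DDX6 and ADAR2dd-control, NEAT1 is high in APOBEC1_ADAR2dd-control, NORAD is low in APOBEC1-DDX6, and SNHG6 is high in both lines that carry ADAR2dd.

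The first comparison asked how the RNA level of each member in the line carrying APOBEC1-DDX6 stood against the line carrying the unfused APOBEC1-control, before induction. The 2 nuclear-retained RNAs and NORAD were lower, SNHG1 and SNHG6 were higher, and GAS5, SNHG5 and SNHG8 did not pass the test. Of all 16229 genes tested with limma, 43.8% passed at an adjusted p under 0.05, 23.6% higher and 20.2% lower, so 5 of 8 members called is a share not far above that of genes at large. DDX6 itself stood at 68.9 to 69.6 TPM in APOBEC1-DDX6 libraries and at 78.9 to 81.2 TPM in APOBEC1-control libraries. It was thus lower in the uninduced fusion line, with no overlap between the libraries. Here and in the comparisons below, the share of all genes whose groups were apart was not computed. Whether these values include RNA of the construct is not given in the sources used here.

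MALAT1 had 32.4, 34.3 and 29.8 TPM in APOBEC1-DDX6 libraries, against 60.2, 58.5 and 56.0 TPM in APOBEC1-control libraries. Every APOBEC1-DDX6 library lay well under every control library. The means were 32.2 ± 2.30 and 58.2 ± 2.12 TPM (SD, n = 3 each), and the log2 fold change was -0.84 (SE 0.05, limma adjusted p = 2.1e-06). Only 2.73% of genes had a smaller log2 fold change. In bulk libraries, fewer cells that express an RNA and less of it per cell cannot be told apart.

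NEAT1 had 14.2, 14.1 and 14.9 TPM in APOBEC1-DDX6 libraries, against 20.03, 19.1 and 18.8 TPM in APOBEC1-control libraries. The groups did not overlap, and the log2 fold change was -0.40 (SE 0.04, limma adjusted p = 4.6e-05). NORAD had 198, 207 and 199 TPM in APOBEC1-DDX6 libraries, against 281, 274 and 269 TPM in APOBEC1-control libraries. Its groups were also apart, with a log2 fold change of -0.45 (SE 0.02, limma adjusted p = 8.7e-07). The cytoplasmic NORAD and the nuclear NEAT1 were thus lower by similar amounts in this line, and MALAT1 by more.

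Among the snoRNA hosts, SNHG6 had 200.4, 197 and 207 TPM in APOBEC1-DDX6 libraries, against 174, 171 and 163 TPM in APOBEC1-control libraries (log2 fold change 0.25, SE 0.03, limma adjusted p = 8.2e-05). SNHG1 had 93.7, 95.1 and 93.6 TPM in APOBEC1-DDX6 libraries, against 83.2, 82.8 and 79.5 TPM in APOBEC1-control libraries (log2 fold change 0.20, SE 0.03, limma adjusted p = 0.00067). For both hosts the groups were apart, with differences of 1.19-fold and 1.15-fold. How many of all genes were apart here was not computed. GAS5 averaged 99.8 ± 3.68 TPM in APOBEC1-DDX6 and 104 ± 2.93 TPM in APOBEC1-control libraries (SD, n = 3 each; 95% interval of the log2 difference -0.14 to 0.02). SNHG5 averaged 11.3 ± 0.299 TPM in APOBEC1-DDX6 and 10.95 ± 0.170 TPM in APOBEC1-control libraries (interval -0.09 to 0.18). SNHG8 averaged 10.8 ± 0.431 TPM in APOBEC1-DDX6 and 10.6 ± 0.625 TPM in APOBEC1-control libraries (interval -0.14 to 0.18). In these 3 hosts the libraries of both lines overlapped.

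The other uninduced lines were set against the same APOBEC1-control libraries, so the 3 comparisons share their reference and their values are given side by side only. In ADAR2dd-control cells, MALAT1 was lower and SNHG6, SNHG8, SNHG1 and NEAT1 were higher. Of all genes, 60.4% passed here, 39.2% higher and 21.2% lower, so the 5 of 8 members called lie at the background. MALAT1 had 25.8 and 25.6 TPM in ADAR2dd-control libraries, against 60.2, 58.5 and 56.0 TPM in APOBEC1-control libraries, a log2 fold change of -1.15 (SE 0.05, limma adjusted p = 1.8e-07). This was the lowest MALAT1 level of the 4 lines, 2.27-fold under the highest, and only 2.68% of genes had a smaller log2 fold change.

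SNHG6 had 288.4 and 288.03 TPM in ADAR2dd-control libraries, against 174, 171 and 163 TPM in APOBEC1-control libraries (log2 fold change 0.77, SE 0.03, limma adjusted p = 5.4e-08). SNHG1 had 114 and 112 TPM in ADAR2dd-control libraries, against 83.2, 82.8 and 79.5 TPM in APOBEC1-control libraries (log2 fold change 0.46, SE 0.03, limma adjusted p = 2.9e-06). SNHG8 had 14.4 and 16.1 TPM in ADAR2dd-control libraries, against 11.3, 10.4 and 10.1 TPM in APOBEC1-control libraries (log2 fold change 0.49, SE 0.08, limma adjusted p = 0.0006). All 3 hosts were apart between the lines and stayed higher, past the threshold, under both other scalings. The share of all genes apart between these lines was not computed.

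NEAT1 had 21.1 and 22.3 TPM in ADAR2dd-control libraries, against 20.03, 19.1 and 18.8 TPM in APOBEC1-control libraries (log2 fold change 0.16, SE 0.04, limma adjusted p = 0.011). That call rested on the scaling, as the log2 fold change was -0.11 without the mitochondrial genes and 0.05 after centring, with neither called, and on replicate 2 of ADAR2dd-control, without which it was 0.12 and not called (limma adjusted p = 0.090). NORAD averaged 276 ± 1.36 TPM in ADAR2dd-control (n = 2) and 275 ± 5.84 TPM in APOBEC1-control libraries (n = 3), with a log2 fold change of 0.01. Its log2 fold change was -0.28 without the mitochondrial genes and -0.10 after centring, and passed as lower in both. GAS5 averaged 109 ± 4.07 TPM in ADAR2dd-control (n = 2) and 104 ± 2.93 TPM in APOBEC1-control libraries (n = 3) and was not called (log2 fold change 0.06). Without the mitochondrial genes its log2 fold change was -0.22 and passed, and after centring it was -0.04 and did not. SNHG5 had 12.9 and 11.01 TPM in ADAR2dd-control libraries, against 11.1, 10.9 and 10.8 TPM in APOBEC1-control libraries, with overlapping groups and no call (log2 fold change 0.11). Without replicate 2 of ADAR2dd-control it was 0.22 and passed.

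In APOBEC1_ADAR2dd-control cells, which carry both unfused editors, NEAT1 and SNHG6 were the members with the largest rises. Counting every call, 7 of 8 members were higher and 0 lower by limma at an adjusted p under 0.05, as well as at an unadjusted p under 0.05. Of all genes 56.8% passed, 39.6% higher and 17.1% lower. Only 4 members stayed higher under each other scaling, NEAT1, GAS5, SNHG6 and SNHG8, and 2 were then lower, MALAT1 and NORAD.

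NEAT1 had 41.1 and 40.4 TPM in APOBEC1_ADAR2dd-control libraries, against 20.03, 19.1 and 18.8 TPM in APOBEC1-control libraries. The level was 2.11-fold higher (log2 fold change 1.04, SE 0.04, limma adjusted p = 1.7e-07), and 96.2% of genes had a smaller log2 fold change. SNHG6 had 300.3 and 297 TPM in APOBEC1_ADAR2dd-control libraries, against 174, 171 and 163 TPM in APOBEC1-control libraries (log2 fold change 0.82, SE 0.03, limma adjusted p = 8.6e-08). GAS5 had 144 and 137 TPM in APOBEC1_ADAR2dd-control libraries, against 107, 102 and 102 TPM in APOBEC1-control libraries (log2 fold change 0.43, SE 0.04, limma adjusted p = 2.1e-05). SNHG8 had 15.9 and 13.6 TPM in APOBEC1_ADAR2dd-control libraries, against 11.3, 10.4 and 10.1 TPM in APOBEC1-control libraries (log2 fold change 0.44, SE 0.08, limma adjusted p = 0.0013). Each of these 4 was apart from APOBEC1-control in every library, but the share of all genes apart in this way was not computed.

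The other calls in this line were weaker. MALAT1 had 53.7 and 53.2 TPM in APOBEC1_ADAR2dd-control libraries, against 60.2, 58.5 and 56.0 TPM in APOBEC1-control libraries. It did not pass (log2 fold change -0.12, limma adjusted p = 0.091), but passed as lower without the mitochondrial genes (-0.34) and after centring (-0.27). It also passed without APOBEC1-DDX6 replicate 2 or replicate 3 (limma adjusted p = 0.049 and 0.033), which enter only the shared estimate of the spread. NORAD averaged 288.3 ± 1.43 TPM in APOBEC1_ADAR2dd-control (n = 2) and 275 ± 5.84 TPM in APOBEC1-control libraries (n = 3). Its log2 fold change of 0.07 (limma adjusted p = 0.040) turned to -0.15 without the mitochondrial genes and to -0.08 after centring. The call was also lost when any of 7 of the 10 libraries was left out, all but APOBEC1-control replicate 1 and APOBEC1-DDX6 replicates 1 and 2 (limma adjusted p 0.018 to 0.15 over the 10). SNHG5 averaged 13.8 ± 0.458 TPM in APOBEC1_ADAR2dd-control (n = 2) and 10.95 ± 0.170 TPM in APOBEC1-control libraries (n = 3), a log2 fold change of 0.31 that fell short of the threshold under both other scalings (0.11 and 0.16). SNHG1 averaged 92.1 ± 4.65 TPM in APOBEC1_ADAR2dd-control (n = 2) and 81.8 ± 2.05 TPM in APOBEC1-control libraries (n = 3). Its log2 fold change of 0.17 was -0.05 without the mitochondrial genes and 0.02 after centring.

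**Figure D2:**
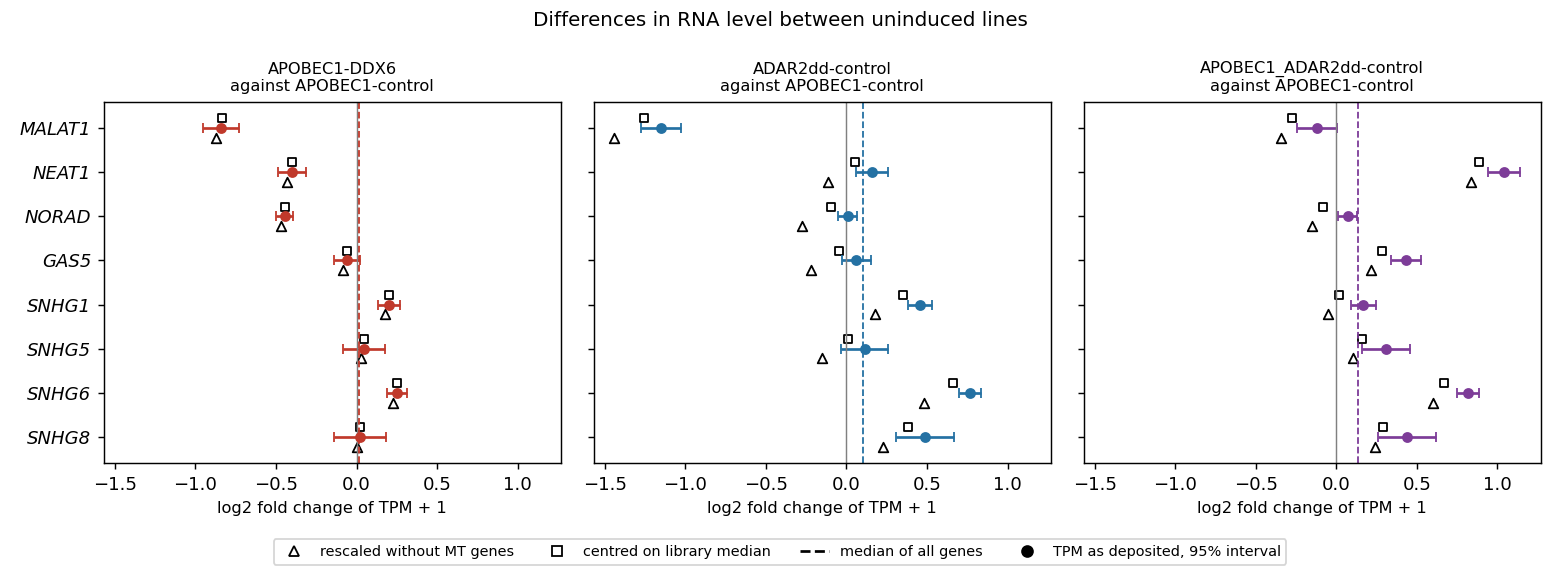
Log2 fold change of TPM + 1 (horizontal axis) of each member (vertical axis) in 3 uninduced lines against APOBEC1-control. Filled points with bars are limma estimates with 95% intervals, open symbols the estimates after 2 other scalings, and the dashed line the median of all genes. In APOBEC1-DDX6 the 3 estimates of a member nearly coincide, while in the 2 lines with ADAR2dd they are spread, and NORAD lies on both sides of 0.

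MALAT1 and NEAT1, neighbours on chromosome 11, were both lower in APOBEC1-DDX6 but did not move together in the lines with ADAR2dd. Their ratio within a library does not depend on scaling. NEAT1 over MALAT1 in TPM was 0.44, 0.41 and 0.50 in APOBEC1-DDX6, 0.82 and 0.87 in ADAR2dd-control, 0.77 and 0.76 in APOBEC1_ADAR2dd-control, and 0.33, 0.33 and 0.34 in APOBEC1-control libraries. All 7 libraries of the other lines lay above the 3 APOBEC1-control libraries. The order of levels across lines differed too. MALAT1 was highest in APOBEC1-control, then APOBEC1_ADAR2dd-control, APOBEC1-DDX6 and ADAR2dd-control, with no overlap between neighbours. The step of MALAT1 from APOBEC1-control to APOBEC1_ADAR2dd-control did not pass the test. NEAT1 was highest in APOBEC1_ADAR2dd-control, then ADAR2dd-control, APOBEC1-control and APOBEC1-DDX6, again with no overlap. Between ADAR2dd-control and APOBEC1-control that order depended on the scaling, with a NEAT1 log2 fold change of -0.11 without the mitochondrial genes. SNHG6 had the order APOBEC1_ADAR2dd-control, ADAR2dd-control, APOBEC1-DDX6 and APOBEC1-control without overlap, while for SNHG8 the 2 lines with ADAR2dd overlapped and so did the other 2. These orders are of TPM as deposited, and the share of all genes with groups apart in this way was not computed.

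Related genes were described by counts, to be read beside the 23.6% of all genes that were higher and 20.2% that were lower in APOBEC1-DDX6 cells (28.7% and 23.1% of protein-coding genes). There, 6 of 20 tested other spliced snoRNA hosts were higher and 3 lower, with a median log2 fold change of 0.04 beside 0.01 for all genes. Among 16 tested other long noncoding RNAs, 1 was higher and 4 lower. Of 664 lncRNA genes by RefSeq biotype, 9.79% were higher and 18.2% lower. mRNAs of paraspeckle and nuclear speckle proteins, the protein partners of NEAT1 and MALAT1, were higher in 9 of 13 cases and lower in 0 (1 lower without the mitochondrial genes). Among them PSPC1, a paraspeckle protein gene named after its values were seen, averaged 43.2 ± 0.466 TPM in APOBEC1-DDX6 and 26.6 ± 0.172 TPM in APOBEC1-control libraries (SD, n = 3 each; log2 fold change 0.68, limma adjusted p = 2.2e-07). mRNAs of nonsense-mediated decay factors were higher in 8 of 14 cases and lower in 2. Under the 2 other scalings 6 and 7 of the 14 were higher.

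In the lines with ADAR2dd these counts depended on the scaling, as did those of all genes. In ADAR2dd-control 39.2% of all genes were higher and 21.2% lower, against 20.1% and 36.8% without the mitochondrial genes and 31.9% and 27.8% after centring. In APOBEC1_ADAR2dd-control 39.6% were higher and 17.1% lower, against 20.8% and 29.9% without the mitochondrial genes and 26.7% and 27.8% after centring. Of the 20 other snoRNA hosts, 15 were higher and 3 lower in ADAR2dd-control, against 6 and 4 without the mitochondrial genes and 12 and 3 after centring. In APOBEC1_ADAR2dd-control 3 of the 20 were higher and 6 lower, against 3 and 13 without the mitochondrial genes and 3 and 11 after centring. Paraspeckle and speckle mRNAs were higher in 11 of 13 cases and lower in 0 in ADAR2dd-control (9 and 3 without the mitochondrial genes, 10 and 1 after centring). In APOBEC1_ADAR2dd-control 6 were higher and 5 lower (2 and 8 without the mitochondrial genes, 4 and 8 after centring).

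Translation efficiency was the second readout. It rests on polysome and total RNA libraries, per the labels, and for a noncoding RNA it speaks of RNA found with polysomes, not of protein output. The deposited values are log2 and have no replicates, so no test was possible and differences are descriptions. From 52.0% to 62.2% of genes per column are listed at exactly 0, which was treated as no value. A value in all 4 columns was held by 18872 genes, all 8 members among them. DDX6, the deleted gene, had a log2 translation efficiency of -0.18 in DDX6-KO and -1.71 in WT HCT116 cells, and of 0.85 in DDX6-KO and 0.18 in WT HEK293T cells. This ratio does not show the loss of its RNA.

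In HCT116 cells the 5 snoRNA hosts were lower in DDX6-KO than in WT cells, and NORAD and NEAT1 were higher. Translation efficiency was below that of WT cells in 5 of 5 member hosts, beside 28.2% of all 18872 genes, whose median difference was 0.17. SNHG5 had a log2 translation efficiency of -0.63 in DDX6-KO and 0.17 in WT HCT116 cells, a difference of -0.80. SNHG6 had -0.49 in DDX6-KO and 0.19 in WT cells, a difference of -0.68. These were the 2 members lower by at least 1.5-fold, which 2.31% of all genes were, and 1.26% and 1.68% of genes had smaller differences.

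The remaining hosts moved less. SNHG8 had a log2 translation efficiency of 0.55 in DDX6-KO and 1.03 in WT HCT116 cells (difference -0.48), SNHG1 0.53 in DDX6-KO and 0.87 in WT cells (-0.34), and GAS5 -0.16 in DDX6-KO and 0.18 in WT cells (-0.34). All 5 differences lay among the lowest 6.05% of genes. Centring the differences on the median of the 14671 genes with at least 1 TPM, which was 0.25, put all 5 past 1.5-fold, as it did 6.07% of all genes. Centring on the median of all genes put 3 of them past it, SNHG5, SNHG6 and SNHG8, with 4.50% of all genes. SNHG1 and SNHG8 remained above the median gene of DDX6-KO cells (0.15), while SNHG5 and SNHG6 were at the 6.66 and 9.21 percentiles.

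NORAD had a log2 translation efficiency of -2.07 in DDX6-KO and -2.81 in WT HCT116 cells, a difference of 0.75. In WT HCT116 cells 0.207% of genes were lower than NORAD, and in DDX6-KO cells 0.286%, so it stayed near the bottom of the range. NEAT1 had -0.39 in DDX6-KO and -1.002 in WT HCT116 cells, a difference of 0.62. Both passed 1.5-fold, which 19.7% of all genes did in this direction, and neither did once the median of all genes was taken off. MALAT1 had -0.19 in DDX6-KO and -0.21 in WT HCT116 cells, a difference of 0.02 that lay under the median gene.

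**Figure D3:**
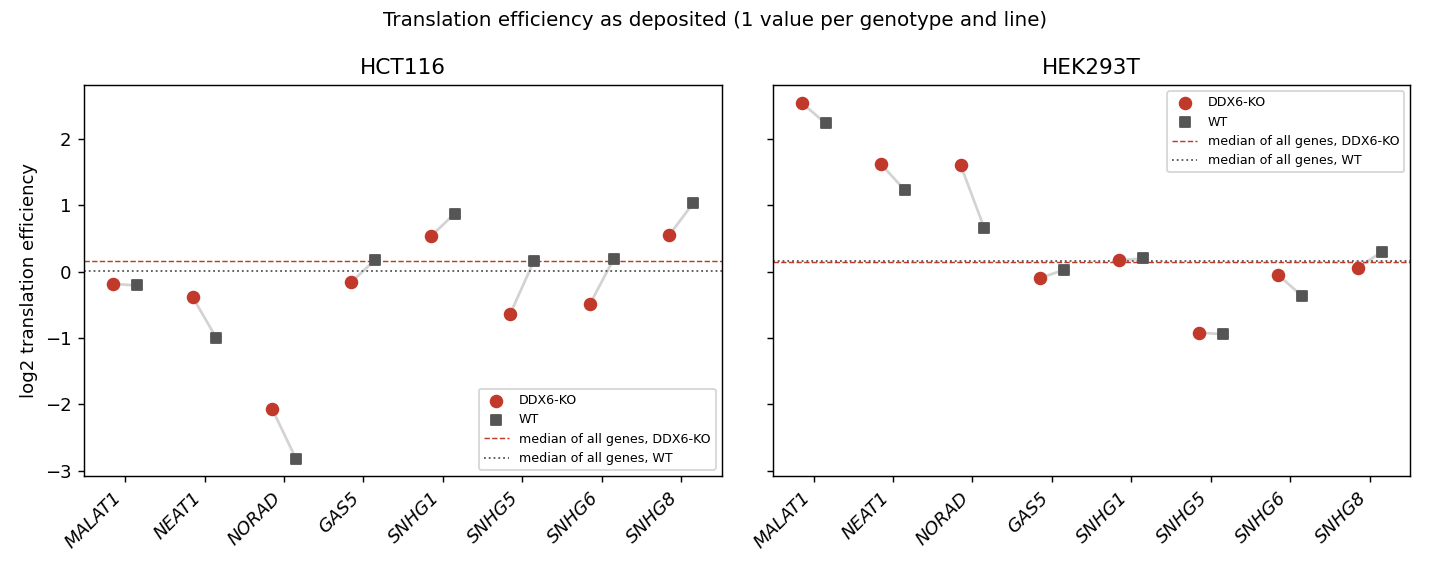
Log2 translation efficiency (vertical axis) of the 8 members (horizontal axis) in DDX6-KO (circles) and WT cells (squares) of HCT116 (left) and HEK293T (right). Lines mark the median of all genes in each genotype. The snoRNA hosts are lower in DDX6-KO HCT116 cells, and MALAT1, NEAT1 and NORAD lie above the median in HEK293T but below it in HCT116.

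In HEK293T cells NORAD was the member with the largest difference. It had a log2 translation efficiency of 1.61 in DDX6-KO and 0.65 in WT cells, a difference of 0.96 or 1.94-fold that exceeded that of 99.2% of genes. It was the 1 member past 1.5-fold, which 5.01% of all genes were in this direction and 3.40% in the other. NEAT1 had 1.61 in DDX6-KO and 1.22 in WT HEK293T cells (difference 0.39), and MALAT1 had 2.54 in DDX6-KO and 2.23 in WT cells (0.31). NORAD, NEAT1 and MALAT1 were therefore above 0 in DDX6-KO minus WT cells of both lines, as were 42.5% of all genes. MALAT1 was so by only 0.02 in HCT116, which was 0.15 below the median difference of all genes.

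The hosts showed smaller differences in HEK293T. SNHG8 had a log2 translation efficiency of 0.06 in DDX6-KO and 0.29 in WT HEK293T cells (difference -0.23), GAS5 -0.10 in DDX6-KO and 0.02 in WT cells (-0.12), and SNHG1 0.17 in DDX6-KO and 0.20 in WT cells (-0.03). SNHG5 had -0.92 in DDX6-KO and -0.94 in WT HEK293T cells (0.03), and SNHG6 had -0.05 in DDX6-KO and -0.37 in WT cells (0.32). SNHG8, GAS5 and SNHG1 were thus lower in both lines with SNHG1 close to 0 in HEK293T. SNHG6 was lower in HCT116 and higher in HEK293T, and SNHG5 was lower in HCT116 and close to 0 in HEK293T. These differences between lines were not tested.

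**Figure D4:**
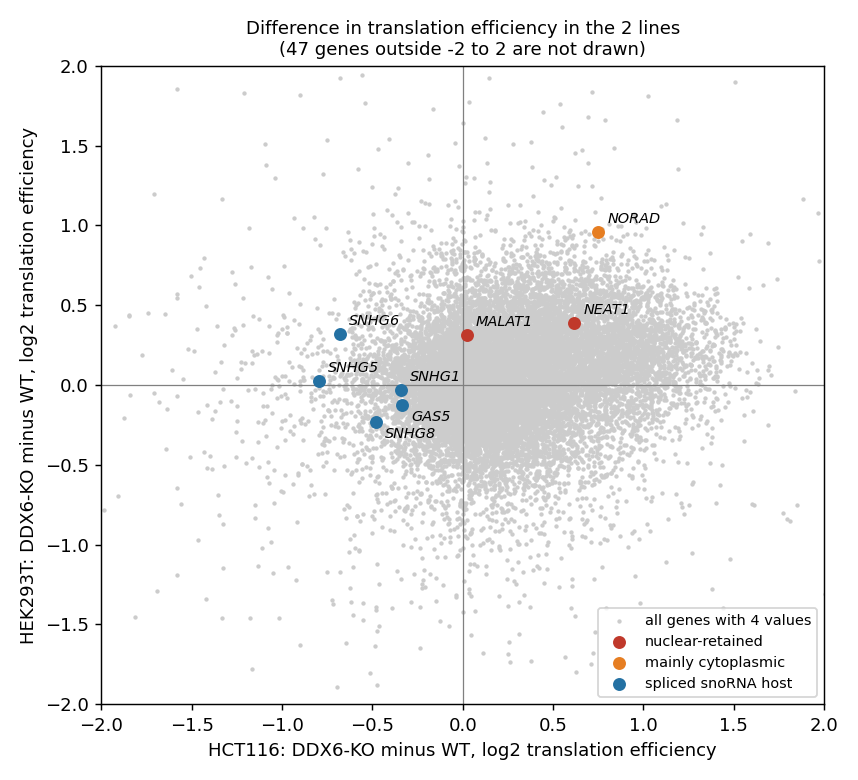
DDX6-KO minus WT difference in log2 translation efficiency in HCT116 (horizontal axis) and HEK293T (vertical axis). Grey points are all genes with values in both genotypes of both lines, of which 47 outside -2 to 2 are not drawn, and coloured points are the members by kind. The 5 snoRNA hosts lie left of 0, and NORAD and NEAT1 lie at the upper right.

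The other spliced snoRNA hosts with values, 20 of 21, gave the same kind of count. In HCT116, 16 of 20 were lower in DDX6-KO than in WT cells (median difference -0.26), and in HEK293T also 16 of 20 (median -0.16), beside 28.2% and 43.8% of all genes. In both lines at once 14 of 20 were lower, beside 14.4% of all genes. Of the 1122 lncRNA genes by RefSeq biotype, 45.01% were lower in HCT116, 51.3% in HEK293T and 24.4% in both. Past 1.5-fold in HCT116 were 4 of the 20 lower and 2 higher, beside 2.31% and 19.7% of all genes. ZFAS1 was lowest, at 0.21 in DDX6-KO and 0.94 in WT HCT116 cells, and SNHG4 was highest, at -0.20 in DDX6-KO and -1.45 in WT cells, both named after their values were seen. A list of mostly protein-coding snoRNA hosts, which also holds the pseudogene CCT6P1, had values for 25 of 25. Of these, 12 were lower in HCT116 and 8 in HEK293T, beside 22.6% and 41.2% of protein-coding genes. Of 18 other named long noncoding RNAs, 4 were lower in DDX6-KO than in WT HCT116 cells. FGD5-AS1 was highest of these, at -0.52 in DDX6-KO and -1.92 in WT HCT116 cells, also named after its values were seen.

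mRNAs of the factors that these RNAs are known to work with were mostly higher in DDX6-KO HCT116 cells, as were most genes, of which 28.2% were lower. Paraspeckle and speckle mRNAs were higher in DDX6-KO cells in 13 of 13 cases, 9 of them past 1.5-fold (19.7% of all genes), and mRNAs of nonsense-mediated decay factors in 13 of 14. Of 13730 protein-coding genes, 10629 were higher in HCT116, 3180 of them past 1.5-fold. In HEK293T the counts were 8 of 13 and 10 of 14, beside 56.2% of all genes and 8070 of 13730 protein-coding genes.

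The level of translation efficiency differed between the cell lines, in opposite directions for the hosts and for the other members. In WT cells MALAT1 had a log2 translation efficiency of -0.21 in HCT116 and 2.23 in HEK293T, which put it above 31.0% of genes in HCT116 and 99.6% in HEK293T. NEAT1 had -1.002 in HCT116 and 1.22 in HEK293T, and NORAD -2.81 in HCT116 and 0.65 in HEK293T. The differences, HCT116 minus HEK293T, were -2.44, -2.23 and -3.46, among the lowest 4.71% of genes. At least 1.5-fold lower in HCT116 were 25.8% of all genes and 12.8% were as much higher. The 5 hosts went the other way in WT cells, with differences of 0.15 for GAS5, 0.56 for SNHG6, 0.68 for SNHG1, 0.74 for SNHG8 and 1.11 for SNHG5. Among all genes 8960 of 18872 were above 0. The split was not particular to the members. Above 0 were 16 of 20 other spliced snoRNA hosts and 18 of 25 mostly protein-coding hosts, while 13 of 18 other long noncoding RNAs were below 0. In DDX6-KO cells MALAT1, NEAT1 and NORAD kept differences of -2.73, -1.9995 and -3.67, while those of the hosts lay between -0.44 and 0.49, none of them past 1.5-fold. Among all genes 23.5% were at least 1.5-fold higher in DDX6-KO HCT116 than in DDX6-KO HEK293T cells and 20.8% as much lower. The WT and DDX6-KO values come from different libraries of the same lines, and the purity of the polysome fraction in either line was not tested.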

How the data were processed

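RNA of HCT116 and HEK293T lines was sequenced as mRNA libraries made from total RNA, per the labels' protocols. The submitters' processing notes name cutadapt 1.18, featureCounts 2.0.1, FastQC 0.11.9, STAR 2.7.9a and the build hg38, without saying how each was used. Editing tables hold counts and the edited fraction per gene as deposited, tail tables hold counts and a tail length signal as deposited, and neither lists a member. The authors deposited TPM for 10 uninduced libraries and log2 translation efficiency as a single column for each genotype in each line. How both were computed is not given in the sources used here. TPM were tested with limma 3.58.1 (trend) on log2(TPM + 1), so fold changes of low genes are understated. Genes had a mean of at least 1 TPM (16229), all 4 groups entered 1 fit, and two-sided p-values had the Benjamini-Hochberg adjustment over all genes. The fit was tested on simulated data. Alternatives were a pseudocount of 0.1, no filter, no trend, a replicate block, leaving out each library, and, chosen after seeing the data, 2 other scalings and other thresholds and centring for translation efficiency. Same-numbered libraries did not deviate together (correlations -0.03 to 0.03 over 13 pairs). These pairs are not independent, since the deviations of 2 libraries in a group of 2 mirror each other. The rule for named genes was all 8 members. Its parts for other lists and for genes of like pattern used editing scores and could not be applied, so genes of other lists were named after their values were seen. Members and lists were chosen with earlier results of these data known. Sequences are from RefSeq, GRCh38.p14. One of the gene lists is not reported here.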

Additional observations from a re-analysis of the deposited data

Results flagged for a closer look

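SNHG5 and SNHG6 were flagged because the DDX6-KO minus WT difference in log2 translation efficiency had opposite signs in the 2 lines. That of SNHG6 was -0.68 in HCT116 and 0.32 in HEK293T. That of SNHG5 was -0.80 in HCT116 and 0.025 in HEK293T, the second close to 0 and -0.014 once the median of all genes was taken off, so no opposite movement is shown for SNHG5. Each value stands alone without replicates, so the difference between lines was not tested.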

How the results depend on the processing

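Alternatives on editing and tails were not run, since no member has a value there. In APOBEC1-DDX6 against APOBEC1-control, 2 members were higher and 3 lower under every alternative run, and leaving out libraries gave SNHG8 log2 fold changes of -0.011 to 0.064. Without mitochondrial genes, ADAR2dd-control had 3 members lower in place of 1, and log2 fold changes turned negative for NEAT1 (-0.11), NORAD (-0.28), GAS5 (-0.22) and SNHG5 (-0.15). APOBEC1_ADAR2dd-control then had 4 members higher in place of 7 and 2 lower in place of 0, with NORAD at -0.15 and SNHG1 at -0.051. Centring on the library median gave ADAR2dd-control 2 members lower, with NORAD at -0.10 and GAS5 at -0.044, and APOBEC1_ADAR2dd-control 4 higher and 2 lower, with NORAD at -0.080.

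The replicate block put 1 member, MALAT1, lower in APOBEC1_ADAR2dd-control (log2 fold change -0.16) and NORAD in ADAR2dd-control at -0.0037. It ended the call of NORAD in APOBEC1_ADAR2dd-control (0.059, limma adjusted p = 0.10), which left 6 members higher. Over all genes of APOBEC1-DDX6 it gave 3682 higher and 3062 lower, in place of 3838 and 3277. Leaving out each library gave 0 to 1 members lower in APOBEC1_ADAR2dd-control and NORAD in ADAR2dd-control at -0.0062 to 0.024. The lone library left in a group was assumed to vary like the others. Of all genes called in ADAR2dd-control, 64.9% were higher, against 35.3% without mitochondrial genes and 53.5% after centring; in APOBEC1_ADAR2dd-control 69.8%, against 41.0% and 49.0%.

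For translation efficiency in HCT116, 2 members were higher and 2 lower by 1.5-fold. At 2-fold there were 0 and 0, and in HEK293T 0 higher in place of 1. Centring on the median of all genes left 0 higher and 3 lower in HCT116. Centring on expressed genes left 0 higher and 5 lower. The NORAD call in APOBEC1_ADAR2dd-control was also lost without the filter (adjusted p = 0.079) and without the trend in limma (adjusted p = 0.12). TPM keep no depth and translation efficiency no replicates, which limits both.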
